A study of Homo sapiens with 5 samples.

Results

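The genes described here are 9 members of the high mobility group (HMG) families of chromatin proteins, HMGA1, HMGA2, HMGB1, HMGB2, HMGB3, HMGN1, HMGN2, HMGN3 and HMGN4, together with MKI67, the gene of the proliferation marker Ki-67. They were chosen by name and make up 10 of the 26485 genes in the count table. RNA-seq was performed on RPE1 cells, a telomerase-immortalized human retinal pigment epithelial line with the genotype given as WT, after 18 h with DMSO, with 0.2 μM doxorubicin or with 0.34 μM doxorubicin. There were 2 DMSO libraries, 2 libraries at 0.2 μM and 1 library at 0.34 μM, and the study joined both concentrations into 1 treated group of 3 libraries. Doxorubicin is an anthracycline that intercalates into DNA and traps topoisomerase II on it. The study's methods call the libraries of a group biological replicates without saying what a replicate was, and the p-values below measure the spread between these libraries of 1 cell line.

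HMG proteins are small, abundant nuclear proteins that change how DNA is bent and how tightly nucleosomes are packed. HMGA proteins bind the minor groove of AT-rich DNA through AT hooks, HMGB proteins bend DNA through HMG boxes, and HMGN proteins bind nucleosomes and compete with linker histone. Ki-67 coats mitotic chromosomes and keeps them apart from each other, and in interphase it lies in and around the nucleolus, and its mRNA and protein are abundant in cycling cells and scarce in resting ones.

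All 10 genes passed the filter for low counts, and all 10 had a lower mean level with doxorubicin. MKI67 showed the largest difference, a level 25.1-fold lower than with DMSO, followed by HMGB2 (6.09-fold lower), HMGB3 (5.02-fold lower) and HMGB1 (2.75-fold lower). HMGN4 stood at the other end, at 1.05-fold lower. The level fell at an adjusted p under 0.01 for 5 of the 10 genes (MKI67, HMGB2, HMGB3, HMGB1 and HMGN1) in the quasi-likelihood test of edgeR with adjustment by the Benjamini-Hochberg method over 14187 genes, against 2.73% of all genes tested that were called lower. With any 1 library left out the count was 1 to 3, namely MKI67 without DMSO library 2, HMGB3 and MKI67 without DMSO library 1, and HMGB2, HMGB3 and MKI67 without any 1 of the doxorubicin libraries. None of the 10 was called higher, as were 1.29% of all genes tested. DESeq2 called 8 of the 10 lower, adding HMGA1, HMGN2 and HMGN3, against 7.72% of its genes. The levels of the 2 groups did not overlap for 9 of the 10 genes, all but HMGN4, against 23.4% of all genes tested that were lower without overlap. The median log2 fold change of the 10 genes was -1.28 and that of all genes tested was 0.01. Levels are given below as CPM, the counts of a gene scaled to the size of its library with TMM normalization, and a log2 fold change is always doxorubicin over DMSO.

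**Figure D1:**
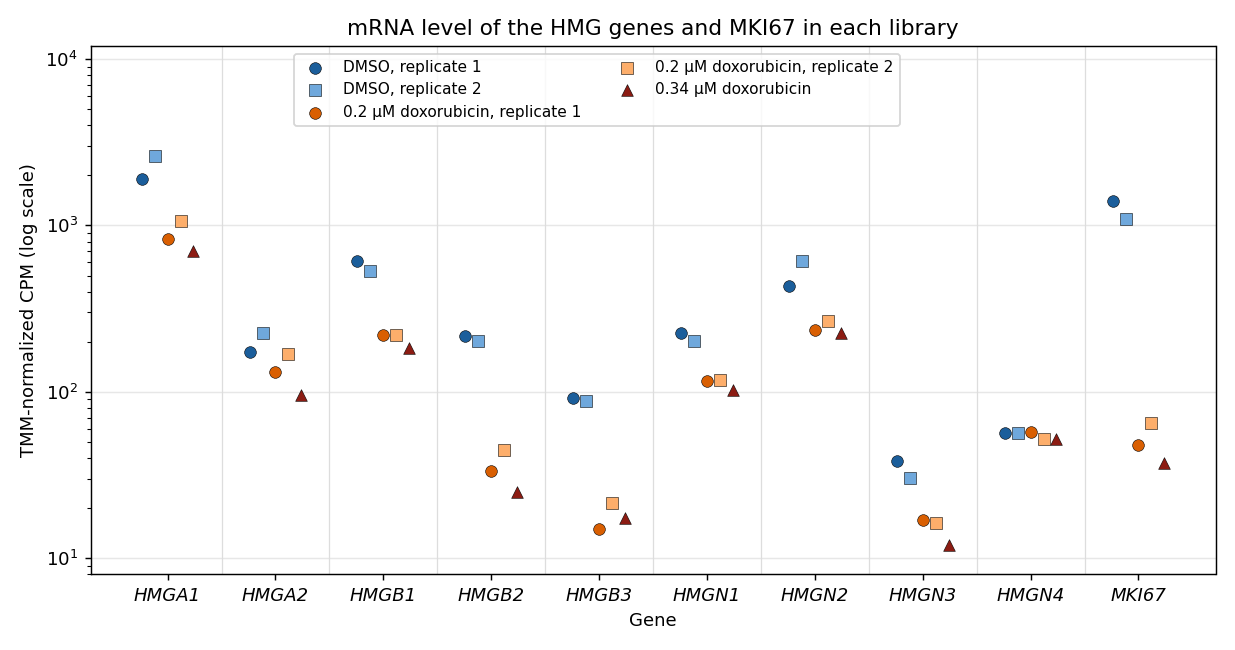
Level of each of the 10 genes in each of the 5 libraries, in CPM on a log axis, with 1 point per library. The points of both groups are apart for every gene but HMGN4, narrowly so for HMGA2, where 168 CPM with doxorubicin stood next to 173 CPM with DMSO.

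The libraries held between 23773061 and 36725345 counts, with normalization factors between 0.975 and 1.04. As a share of all counts, the 9 HMG genes took 0.366% and 0.477% with DMSO, 0.161% and 0.2% at 0.2 μM and 0.141% at 0.34 μM. Markers of the labelled cell type were partly absent, with RPE65 at 3 to 8 counts and TTR at 0 to 1 count per library, whereas MITF was at a mean of 42.9 CPM with DMSO and 44.4 CPM with doxorubicin. The summed level of 10 retinal pigment epithelium markers was 54.9 to 88 CPM with DMSO and 71.7 to 81 CPM with doxorubicin. Of these, 5 were tested, 3 higher and 2 lower, without a call in edgeR. PMEL was at 0.231 and 1.15 CPM (adjusted p 0.0264 in edgeR and 0.00868 in DESeq2). BEST1 was at 0.77 and 2.83 CPM (adjusted p 0.0823 in edgeR and 0.0161 in DESeq2). The summed level of 4 blood markers was 0.191 to 0.313 CPM with DMSO and 1.08 to 2.2 CPM with doxorubicin. PTPRC, the 1 tested, was at 0.232 and 1.72 CPM (adjusted p 0.0212 in edgeR and 0.000571 in DESeq2), and CD3E at 0. The sum over 3 neuronal markers was 73.9 to 94.7 and 43.3 to 59.3 CPM. SYT1 among them was at 82.1 and 49.2 CPM (adjusted p 0.045 in edgeR and 0.00708 in DESeq2). The sum over 3 endothelial markers was 0.381 to 2.62 and 1 to 3.53 CPM. Epithelial markers were higher with doxorubicin, with a summed level over 4 genes of 583 to 696 CPM with DMSO and 970 to 1180 CPM with doxorubicin. KRT8, an epithelial keratin, was at 357 and 652 CPM (log2 fold change 0.87, adjusted p 0.0133 in edgeR and 2.7e-07 in DESeq2), whereas the epithelial cadherin CDH1 had 0 to 4 counts and EPCAM 0 to 1. The sum over 4 mesenchymal markers was 15200 to 25800 CPM with DMSO and 16600 to 25400 CPM with doxorubicin. The part of these markers in the results was not tested. As these are bulk samples, fewer cells that express a gene and less RNA per cell cannot be told apart. By flow cytometry, the study reported a larger proportion of treated cells in G2/M, without an increase in cell death. The part of this shift in the levels here was not tested.

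MKI67 lies on the minus strand of chromosome 10 at chr10:128096659-128126423 (GRCh38), with no overlapping gene in the RefSeq table. It was at 1410 and 1100 CPM in the DMSO libraries, at 48 and 65.2 CPM in the 0.2 μM libraries and at 37.4 CPM in the 0.34 μM library. Each doxorubicin library was thus far below both DMSO libraries, and the reads behind these levels numbered 37084 and 28176 with DMSO and 1243, 1568 and 1357 with doxorubicin. The mean was 1260 ± 220 CPM with DMSO (SD, n = 2) and 50.2 ± 14 CPM with doxorubicin (SD, n = 3). MKI67 had a log2 fold change of -4.65 (SE 0.28, 95% interval -5.32 to -3.98), and its Benjamini-Hochberg adjusted p was 0.000694 in edgeR. Only 5 of the 14187 genes tested had a lower log2 fold change, as MKI67 ranked 6 from the bottom. MKI67 kept its call under each of the 15 alternatives tried, with log2 fold changes between -4.88 and -4.47.

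The promoter of MKI67 is shown next to those of HMGB3 and HMGN4, because MKI67 and HMGB3 fell and HMGN4 had the log2 fold change nearest to 0. Promoters of genes that are switched with the cell cycle often carry a cell cycle homology region (CHR) and CCAAT boxes, and some carry E2F sites. Each line gives the 250 bases before the annotated start in RefSeq (GRCh38.p14), in the direction of transcription, at chr10:128126424-128126673 on the minus strand for MKI67, at chrX:150983085-150983334 on the plus strand for the first of 2 HMGB3 windows and at chr6:26538116-26538365 on the plus strand for HMGN4. Capitals mark matches to the CHR (TTTGAA or TTTAAA) and to the CCAAT box (CCAAT), searched on both strands.
MKI67: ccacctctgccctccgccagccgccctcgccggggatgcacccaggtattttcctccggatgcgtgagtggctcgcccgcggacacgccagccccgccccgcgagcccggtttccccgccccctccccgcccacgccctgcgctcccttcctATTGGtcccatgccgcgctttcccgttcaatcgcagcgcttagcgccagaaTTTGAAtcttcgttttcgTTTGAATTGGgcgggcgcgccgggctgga
HMGB3: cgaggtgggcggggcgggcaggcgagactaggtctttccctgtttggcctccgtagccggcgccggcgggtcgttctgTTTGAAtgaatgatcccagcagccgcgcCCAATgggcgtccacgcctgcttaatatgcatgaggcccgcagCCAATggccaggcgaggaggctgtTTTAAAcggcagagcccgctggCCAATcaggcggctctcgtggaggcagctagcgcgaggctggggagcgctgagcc
HMGN4: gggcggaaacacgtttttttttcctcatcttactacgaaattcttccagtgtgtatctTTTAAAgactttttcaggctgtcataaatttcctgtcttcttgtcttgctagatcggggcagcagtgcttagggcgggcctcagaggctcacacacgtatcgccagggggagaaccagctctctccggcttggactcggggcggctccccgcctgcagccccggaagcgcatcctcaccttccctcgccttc

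In the MKI67 window the CHR letters began at positions -47 and -29, counted back from the start, and the CCAAT box lay on the opposite strand (read as ATTGG) at -98 and -24, the matches at -29 and -24 sharing 1 base. The HMGB3 window held the CHR at -172 and -77 and the CCAAT box at -144, -101 and -55, and its other window held neither. In the HMGN4 window the only match was a CHR at -192. Among the 12 windows found for 8 of the genes (all but HMGA2 and HMGB2), 6 held a CHR, as did 21.9% of all 35116 windows in the table, and 8 held a CCAAT box, as did 32% of all windows. Both were present in 4 windows, 1 each of HMGB1, HMGB3, HMGN2 and MKI67, and in 7.64% of all windows. The windows of HMGN1, which was called lower, and of HMGN3 held no CHR, and no window of HMGA1 held both. None of the 12 held an E2F site, searched on both strands as GCGGGAA or TTCGCGC or TTGGCGC and found in 9.32% of all windows. These are matches of letters and not measured sites.

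The HMGB family, whose members bend DNA and in the case of HMGB1 also act as a danger signal outside the cell, fell in all 3 of its members measured here. HMGB2, which is tied to dividing cells, lies at chr4:173331376-173334358 on the minus strand with no overlapping gene. It was at 216 and 202 CPM with DMSO, at 33.4 and 44.6 CPM at 0.2 μM and at 25 CPM at 0.34 μM. The highest doxorubicin library was therefore far below the lowest DMSO library. Its log2 fold change was -2.61 (SE 0.24, 95% interval -3.19 to -2.02) with a Benjamini-Hochberg adjusted p of 0.0018 in edgeR.

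HMGB3, a relative of HMGB2 best known from blood stem cells, lies at chrX:150980507-150990771 on the plus strand. It was at 91.7 and 88.2 CPM with DMSO, at 14.9 and 21.5 CPM at 0.2 μM and at 17.4 CPM at 0.34 μM. The groups were again far apart, with means of 89.9 ± 2.5 CPM (SD, n = 2) and 17.9 ± 3.36 CPM (SD, n = 3). HMGB3 had a log2 fold change of -2.33 (SE 0.19, 95% interval -2.78 to -1.88), with a Benjamini-Hochberg adjusted p of 0.00125 in edgeR.

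HMGB1, the most abundant of the 3 by reads, lies at chr13:30456704-30617597 on the minus strand, and 3 pseudogenes of other genes (MFAP1P1, PTPN2P2 and RBM22P2) overlap its span. It was at 612 and 529 CPM with DMSO, at 219 and 220 CPM at 0.2 μM and at 184 CPM at 0.34 μM. The doxorubicin libraries lay close together and well below the DMSO libraries. For HMGB1 the log2 fold change was -1.46 (SE 0.16, 95% interval -1.84 to -1.07), and the Benjamini-Hochberg adjusted p was 0.00323 in edgeR. The call of HMGB1 was lost when any 1 of the 5 libraries was left out (adjusted p 0.0119 to 0.0208 in edgeR), that of HMGB2 without DMSO library 1 or 2 (0.0122 and 0.0154) and that of HMGB3 without DMSO library 2 (0.0129). The direction was lower in each of these fits.

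**Figure D2:**
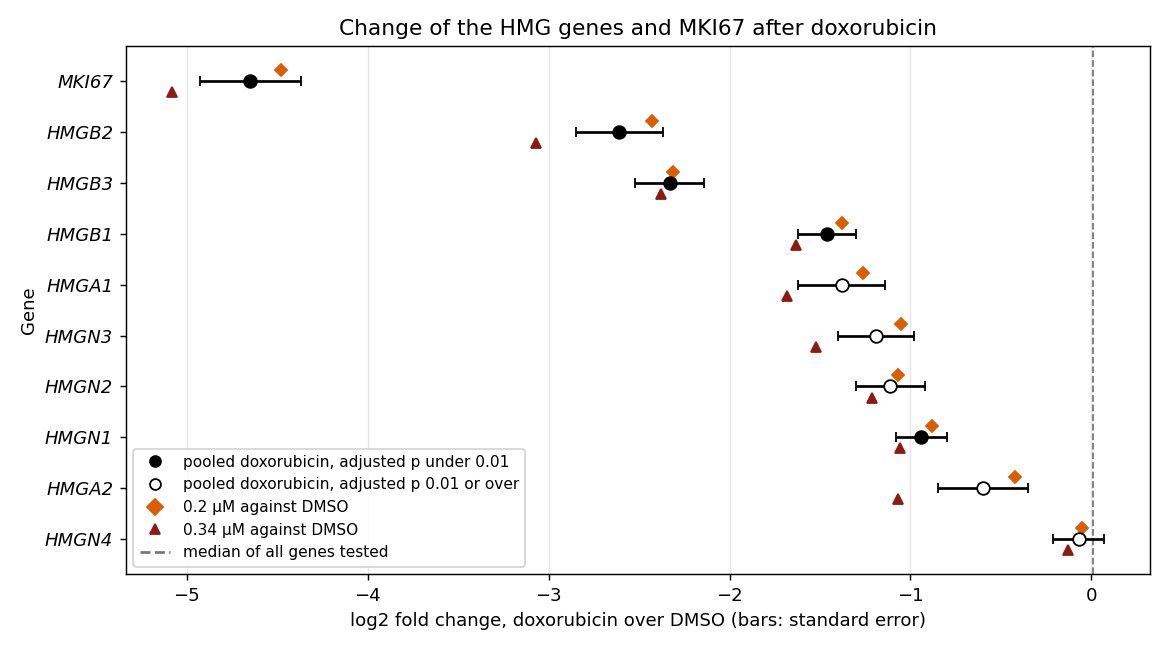
Log2 fold change of each gene, doxorubicin over DMSO, with its standard error from the edgeR fit, filled where the adjusted p was under 0.01. Diamonds and triangles give 0.2 μM and 0.34 μM against DMSO, and the dashed line is the median of all genes tested. MKI67 lies at -4.65 and the 3 HMGB genes between -2.61 and -1.46. The 95% intervals of HMGA2 and HMGN4, which are not drawn, reach 0.

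The HMGN family of nucleosome-binding proteins had 1 member called, HMGN1, which unfolds chromatin and aids repair of damaged DNA. HMGN1 (chr21:39342315-39349088, minus strand) was at 227 and 203 CPM with DMSO, at 116 and 118 CPM at 0.2 μM and at 103 CPM at 0.34 μM. All 3 doxorubicin libraries were at about the same level, below both DMSO libraries. At a log2 fold change of -0.94 (SE 0.14, 95% interval -1.28 to -0.6), HMGN1 lay close to the threshold with a Benjamini-Hochberg adjusted p of 0.00972 in edgeR. This call was lost with limma voom (adjusted p 0.0106) and in the edgeR fit of 3 conditions (adjusted p 0.0309). It was also lost when any 1 of the 5 libraries was left out, with adjusted p 0.0241 to 0.0684 in edgeR for the doxorubicin libraries. The highest of these values belongs to the fit with the 0.2 μM libraries only.

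HMGN2, the member with the most reads in the HMGN family, lies at chr1:26472440-26476642 on the plus strand. It was at 433 and 613 CPM with DMSO, at 234 and 266 CPM at 0.2 μM and at 227 CPM at 0.34 μM. The DMSO libraries differed from each other by 0.5 on the log2 scale, and both lay above the doxorubicin libraries. The log2 fold change of -1.11 (SE 0.19, 95% interval -1.57 to -0.65) did not reach the threshold, with a Benjamini-Hochberg adjusted p of 0.0142 in edgeR.

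HMGN3, a member with a more tissue-restricted pattern, lies at chr6:79201245-79234682 on the minus strand and overlaps its antisense gene HMGN3-AS1. It was at 38.1 and 30.3 CPM with DMSO, at 16.9 and 16.2 CPM at 0.2 μM and at 12 CPM at 0.34 μM. These groups did not overlap either. The log2 fold change was -1.19 (SE 0.21, 95% interval -1.69 to -0.68), with a Benjamini-Hochberg adjusted p of 0.0155 in edgeR. In DESeq2 the adjusted p was 9.86e-06 for HMGN2 and 3.03e-05 for HMGN3, both past the threshold.

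HMGN4, which is closely related to HMGN2, lies at chr6:26538366-26546933 on the plus strand. It was at 56.7 and 56.4 CPM with DMSO, at 57.7 and 51.7 CPM at 0.2 μM and at 51.8 CPM at 0.34 μM. It was the single gene of the 10 whose groups overlapped, and the highest of all 5 values belonged to a doxorubicin library. Its log2 fold change was -0.07 (SE 0.14), with a 95% interval of -0.41 to 0.26 and a Benjamini-Hochberg adjusted p of 0.763 in edgeR, so that a fall of up to 0.41 on the log2 scale lay within the interval.

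The HMGA family, whose AT-hook proteins are abundant in embryonic and transformed cells and take part in senescence-associated heterochromatin, gave no call in edgeR. HMGA1 (chr6:34236873-34246231, plus strand, overlapping MIR6835 and LOC124901225) had the most reads of the 10 genes. It was at 1890 and 2630 CPM with DMSO, at 825 and 1070 CPM at 0.2 μM and at 706 CPM at 0.34 μM. Even the highest doxorubicin library was well under the lower DMSO library, but the DMSO libraries were 0.48 apart on the log2 scale. With a log2 fold change of -1.38 (SE 0.24, 95% interval -1.95 to -0.81), HMGA1 had a Benjamini-Hochberg adjusted p of 0.0142 in edgeR and of 1.96e-06 in DESeq2.

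HMGA2, a target of the let-7 microRNAs, lies at chr12:65824460-65966291 on the plus strand and overlaps HMGA2-AS1, HMGA2-AS2 and RPSAP52. It was at 173 and 225 CPM with DMSO, at 131 and 168 CPM at 0.2 μM and at 95.2 CPM at 0.34 μM. The spread within each group was wider than the gap between the groups. The log2 fold change was -0.6 (SE 0.25, 95% interval -1.21 to 0.01), with a Benjamini-Hochberg adjusted p of 0.168 in edgeR and of 0.114 in DESeq2.

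Reads of several of these genes could be shared with near-identical copies, since RefSeq lists 50 pseudogene loci for HMGB1, 48 for HMGN2, 38 for HMGN1, 32 for HMGB3 and 8 for HMGA1. Of these copies, 3 have a row in the count table. HMGA1P7 had 0 to 2 counts, HMGB3P1 had 0 counts and HMGN2P46 had 7 to 11 counts per library. No source used here says how the counting treated reads that map to several places, so the levels of these genes are uncertain to that extent. Adding the rows of the copies to their parent genes left 5 genes called, but rows with so few counts could hardly change a call. HMGB1, HMGB2, HMGN1 and MKI67 had no such row. The part of reads that map to several places was therefore not tested.

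The libraries of 1 condition also differed from each other, and not for all genes in the same direction. HMGA1, HMGA2 and HMGN2 were higher in the second DMSO library than in the first, by 0.48, 0.38 and 0.5 on the log2 scale, and higher in the second 0.2 μM library by 0.37, 0.36 and 0.19. MKI67 was 0.36 lower in the second DMSO library but 0.44 higher in the second 0.2 μM library. HMGB2 and HMGB3 were 0.42 and 0.53 higher in the second 0.2 μM library, and their DMSO libraries differed by only -0.1 and -0.06. HMGB1, HMGN1 and HMGN4 varied least, with a range of -0.21 to 0.02 over these differences. For the 5 genes that fell, the differences between libraries of 1 condition were all smaller than the log2 fold change.

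At the single concentrations, HMGB2, HMGB3 and MKI67 were called lower at 0.2 μM (3 of the 10, against 0.963% of 14745 genes) and HMGB2 and MKI67 at 0.34 μM (2 of the 10, against 0.509%). The 2 contrasts share the DMSO libraries and came from a fit of 3 conditions in which the lone 0.34 μM library was assumed to vary like the others. The log2 fold change of MKI67 was -4.48 at 0.2 μM and -5.08 at 0.34 μM, with adjusted p-values of 0.0015 and 0.00509 in edgeR. That of HMGB2 was -2.43 and -3.07, and that of HMGB3 was -2.31 and -2.38. HMGB1 was at -1.38 and -1.63, and HMGA1, which has the most reads, was at -1.26 and -1.68. The estimate was lower at 0.34 μM for each of the 10 genes, and the matching share of all genes is not given here. For HMGB3 and HMGN4 the level at 0.34 μM (17.4 and 51.8 CPM) lay between those of the 2 libraries at 0.2 μM. Whether the 0.34 μM library shares a batch with any other library is not stated, so concentration and batch cannot be told apart. Compared directly, none of the 14745 genes was called between the 2 concentrations (0%) in edgeR, where 27 genes but none of the 10 had an unadjusted p under 0.05, and DESeq2 and limma voom also made 0 calls, with 33 and 24 genes under that unadjusted level. For the 10 genes the difference ran from -0.65 (HMGA2, 95% interval -1.38 to 0.08) to -0.07 (HMGB3, 95% interval -0.81 to 0.67). The interval was -1.39 to 0.2 for MKI67 and -1.32 to 0.04 for HMGB2, so that differences of either size within these limits were not detectable with 1 library at the higher concentration.

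The unequal differences also appeared as ratios between relatives within the same library, which do not depend on the scaling between libraries. The log2 ratio of HMGB2 to HMGB1 was -1.5 and -1.39 with DMSO, and -2.71, -2.3 and -2.88 with doxorubicin, a difference of -1.18 between the group means. The ratio of HMGB3 to HMGB1 was -2.74 and -2.59 with DMSO, and -3.88, -3.35 and -3.41 with doxorubicin, a difference of -0.88. In both cases each doxorubicin library held less of the relative per HMGB1 than either DMSO library. The ratio of HMGA2 to HMGA1 was higher with doxorubicin by 0.76, and that of HMGN4 to HMGN2 by 1.02, in both cases with no overlap between groups. The ratio of HMGN3 to HMGN1 was lower by 0.26, with -2.74 in the lower DMSO library and -2.78 in the highest doxorubicin library. For HMGN2 to HMGN1 the groups overlapped (0.93 and 1.6 with DMSO, 1.01 to 1.18 with doxorubicin), and the difference of -0.16 turned to 0.18 without DMSO library 2. With 2 libraries against 3, a two-sided exact permutation test cannot give a p below 0.2, and it gave 0.2 for the 5 pairs without overlap and 0.8 for HMGN2 to HMGN1 (0.24 and 0.8 after Benjamini-Hochberg adjustment over the 6 pairs).

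**Figure D3:**
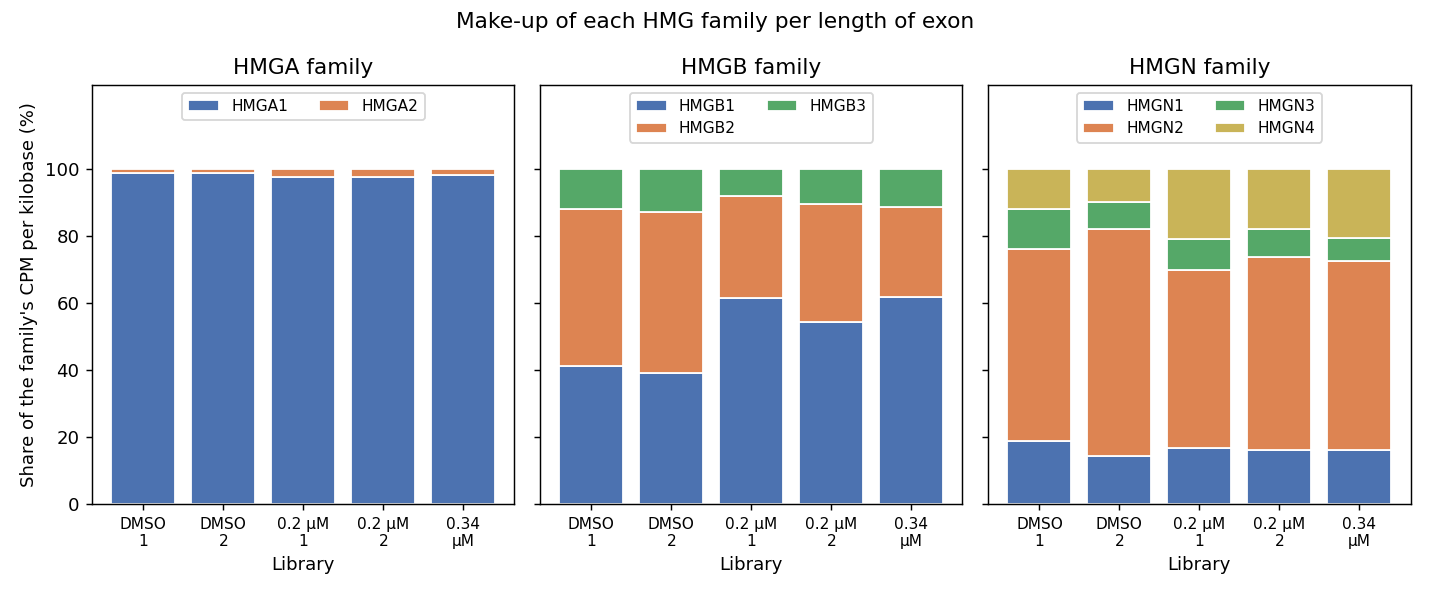
Share of each gene in the summed CPM per kilobase of exon of its family, in percent, with 1 stacked bar per library. HMGB1 makes up 59.2% of the HMGB family on average with doxorubicin and 40.2% with DMSO, while HMGA1 makes up over 97% of the HMGA family in each library.

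Per kilobase of exon, so that genes can be set against each other, the make-up of the HMGB family shifted from HMGB2 toward HMGB1. HMGB1 made up 40.2 ± 1.39% of the family with DMSO (SD, n = 2) and 59.2 ± 4.3% with doxorubicin (SD, n = 3), HMGB2 went from 47.3 ± 0.887% to 30.8 ± 4.28%, and HMGB3 from 12.5 ± 0.498% to 10 ± 1.64%. HMGN4, the gene with a level near that of DMSO, made up 11 ± 1.41% of the HMGN family with DMSO and 19.8 ± 1.65% with doxorubicin. HMGN2 remained the largest part of that family, at 62.5 ± 7.59% and 55.7 ± 2.29%, and HMGN1 was at 16.6 ± 3.36% and 16.3 ± 0.33%. HMGA2 made up 1.35 ± 0.0654% of the HMGA family with DMSO and 2.27 ± 0.196% with doxorubicin. These shares are descriptions without a test and depend on the exon length taken for each gene. With the longest transcript in place of all exons, HMGB1 went from 42.9% to 61.9% and HMGN4 from 7.75% to 14.4%.

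The order of levels per kilobase changed with the treatment. With DMSO it ran from HMGA1 (a mean of 970 CPM per kilobase) and HMGN2 (164) over MKI67 (98), HMGB2 (87), HMGB1 (74.1) and HMGN1 (42.6) to HMGN4 (28.4), HMGN3 (25.4), HMGB3 (23) and HMGA2 (13.2). The ranges of MKI67 and HMGB2 overlapped, as did those of HMGN4 and HMGN3 and of HMGN3 and HMGB3. With doxorubicin HMGA1 (372) and HMGN2 (75.9) still led, followed by HMGB1 (27), HMGN4 (27), HMGN1 (22.2), HMGB2 (14.3), HMGN3 (11.2), HMGA2 (8.71), HMGB3 (4.58) and MKI67 (3.91). MKI67 thus stood in the third place with DMSO and in the last with doxorubicin, where its range overlapped that of HMGB3, and the ranges of HMGB1 and HMGN4, of HMGB2 and HMGN3 and of HMGN3 and HMGA2 overlapped as well. HMGA1 and HMGN2 had no overlap with the gene below them in either group. With the longest transcript as the length, MKI67 (99) came after HMGB2 (113) and HMGB1 (105) with DMSO, all with overlapping ranges, and was again the last with doxorubicin (3.95).

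**Figure D4:**
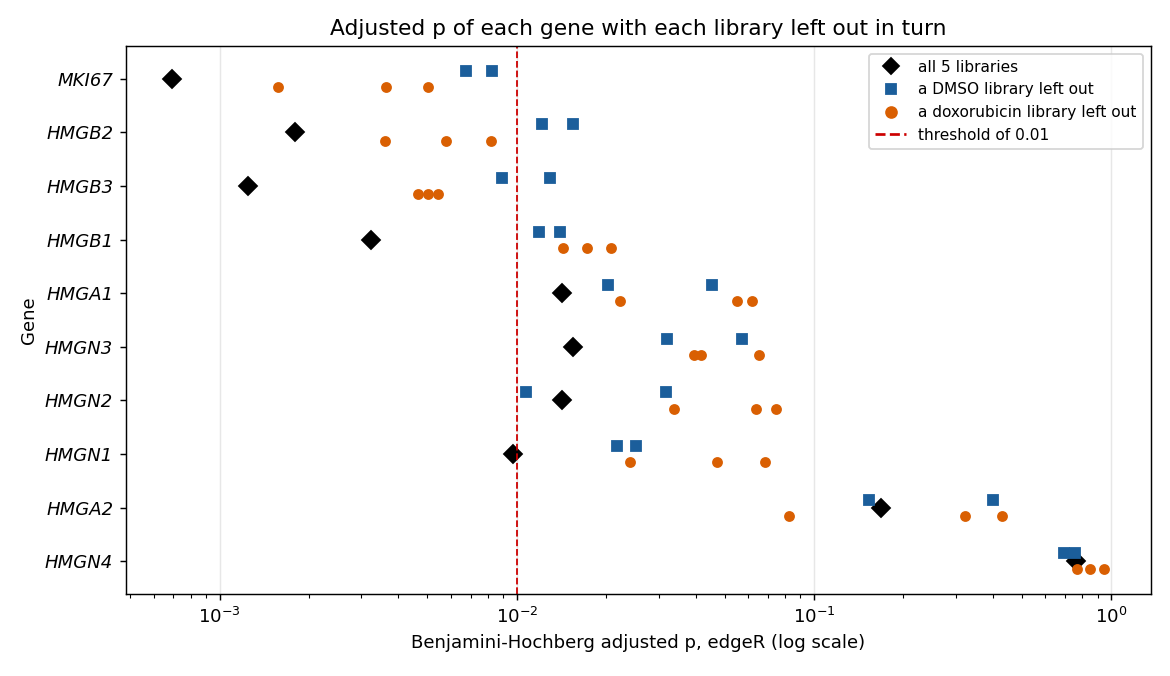
Benjamini-Hochberg adjusted p of each gene in edgeR, on a log axis, with all libraries and with each of the 5 libraries left out in turn. The dashed line is the threshold of 0.01. The log2 fold changes of these fits are not drawn. That of MKI67 stays between -4.88 and -4.47 and that of HMGN4 between -0.12 and -0.04, and no gene changes direction.

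For each gene, the genes with the most similar profile over the 5 libraries were found among 11755 genes, by the root mean square difference of centred log2 CPM. Those most like MKI67 were NEK2 (0.176), DLGAP5 (0.183) and ASPM (0.192), and those most like HMGB2 were HAUS8 (0.118), KIAA1524 (0.127) and BRIP1 (0.142). HMGB3 was closest to CKAP2 (0.13), CEP128 (0.135) and CENPJ (0.151), and HMGB1 to SMC1A (0.064), ANP32B (0.065) and GGCT (0.071). HMGA1 was closest to SUV39H2 (0.057), LOC81691 (0.057) and SMAGP (0.071), and HMGA2 to MCTS2P (0.058), TMEM156 (0.076) and NDST3 (0.077). In the HMGN family, HMGN1 was closest to TPM3 (0.024), CDC27 (0.034) and PDS5A (0.037), HMGN2 to FBXO4 (0.065), ZNF530 (0.065) and HSP90AA1 (0.067), HMGN3 to C1orf21 (0.06), RAPH1 (0.081) and ARSK (0.089), and HMGN4 to WDFY3 (0.023), HLCS (0.025) and RILPL2 (0.029). No other gene of the 10 was among the 3 nearest of any of them. The profile includes the difference between the groups, so that a similar log2 fold change is part of the likeness.

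Among 28 other genes with an HMG box or an HMGN domain, 26 were tested, 19 were lower and 7 higher, with a median log2 fold change of -0.41. For this list and those below, the shares of all genes were 2.73% called lower and 1.29% called higher in edgeR. In DESeq2 7.72% were called lower, and the share of all genes merely lower is not given here. Of the 26 genes, 2 fell. WDHD1, which acts in DNA replication, was at a log2 fold change of -1.85 (adjusted p 0.00577 in edgeR). SSRP1, a subunit of the histone chaperone FACT, was at -1.28 (adjusted p 0.00476 in edgeR). With any 1 library left out, neither was called (adjusted p 0.0106 to 0.0323 for SSRP1 and 0.013 to 0.0276 for WDHD1 in edgeR), while 12 of the 26 had an unadjusted p under 0.05, as did 30.8% of all genes tested. DESeq2 called 6 of the 26 lower and 1 higher, SOX4 (log2 fold change 0.7, adjusted p 0.0449 in edgeR and 0.00668 in DESeq2), a transcription factor named after its values were seen. HMGN5, the remaining HMGN gene, was at a log2 fold change of -1.03 without a call (adjusted p 0.0894 in edgeR), and HMGB4 and TOX3 had 0 counts in each library.

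Of 16 receptors and partners of HMGB1, 11 were tested, 9 of them lower and 2 higher. CD24, a surface protein that binds HMGB1, rose (log2 fold change 1.99, adjusted p 0.00761 in edgeR), and PARP1, which marks DNA breaks with poly(ADP-ribose), fell (-1.09, adjusted p 0.00973 in edgeR). The PARP1 call was lost with any 1 library left out (adjusted p 0.0103 to 0.0616 in edgeR), and that of CD24 without DMSO library 1 or 2 or the 0.34 μM library (adjusted p up to 0.0432 in edgeR). DESeq2 called 4 of the 11 lower, adding XPO1, SET and ANP32A, and called CD24 higher. The HMGB1 receptor TLR4 was at 87 CPM with DMSO and 94.1 CPM with doxorubicin, and AGER, the gene of the receptor RAGE, was at 3.72 and 2.7 CPM, neither with a call. Of 15 genes around HMGA and the let-7 microRNAs, 13 were tested and 0 were called in edgeR, with 6 at an unadjusted p under 0.05 and 1 called lower by DESeq2, and 12 of the 13 were lower. LIN28A and LIN28B, which block the maturation of let-7, had at most 3 counts in any library.

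Of 16 genes of senescence-associated heterochromatin, the structure in which HMGA proteins are known to accumulate, 14 were lower. Against 2.73% of all genes tested that were called lower, 5 of the 16 fell. These were LMNB1, the B-type lamin of the nuclear envelope (log2 fold change -4.18, adjusted p 0.000341 in edgeR), the histone chaperone ASF1B (-2.36, adjusted p 0.00808 in edgeR), the histone H3 lysine methyltransferase SUV39H1 (-2.27, adjusted p 0.00321 in edgeR), and, named after their values were seen, the HP1 proteins CBX5 (-1.52) and CBX1 (-1.17). The macroH2A genes MACROH2A1 and MACROH2A2 were at 0.09 and -0.02. HIRA (-0.29), ASF1A (-0.19), UBN1 (-0.25) and CABIN1 (-0.42), also in this list, had no call in edgeR or DESeq2. With any 1 library left out, LMNB1 was still called (adjusted p up to 0.00823 in edgeR), SUV39H1 was called only without DMSO library 1, and ASF1B, CBX5 and CBX1 were called in none of these fits. DESeq2 called 7 of the 16 lower. Linker histones, with which HMGN proteins compete, gave 0 calls among 4 tested genes in edgeR, with 2 at an unadjusted p under 0.05 and 1, H1-2, called higher by DESeq2. H1-2 was at 1.47 (adjusted p 0.0364 in edgeR) and H1-10 at -0.93. Most linker histone transcripts lack the poly-A tail by which these libraries were selected, so their levels here are a poor measure.

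Of 14 partners of Ki-67 and proteins of the perichromosomal layer, 2 fell in edgeR, against 2.73% of all genes tested. Both are mitotic proteins. The kinesin KIF15 was at a log2 fold change of -4.21 (adjusted p 0.000691 in edgeR) and CDCA2, which brings protein phosphatase 1 to chromosomes, at -3.5 (adjusted p 0.000912 in edgeR). The call of KIF15 held with any 1 library left out, and that of CDCA2 was lost without DMSO library 2 (adjusted p 0.0102 in edgeR). NIFK, the nucleolar protein that binds the forkhead-associated domain of Ki-67, was at 0.35, without a call. The nucleolar proteins NPM1 and NCL were at -0.55 and -0.83, without a call in edgeR. DESeq2 called 3 of the 14 lower, KIF15, CDCA2 and NCL (adjusted p 0.00865 in DESeq2 for NCL). Of 14 proliferation markers other than MKI67, 11 fell, against 2.73% of all genes tested. Among them were PLK1 (-5.53), BUB1 (-4.47) and CCNA2 (-3.95), all 3 of them called with any 1 library left out. The count of 11 was 5 to 9 in those fits. PCNA, a replication clamp that is also a target of p53, was at 1.01 without a call (adjusted p 0.117 in edgeR). The p53 targets CDKN1A and MDM2 rose, with log2 fold changes of 3.39 and 2.19, calls that were lost without DMSO library 2 (both) and without DMSO library 1 (MDM2). The part of the lower proliferation markers in the lower HMG levels was not tested.

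**Figure D5:**
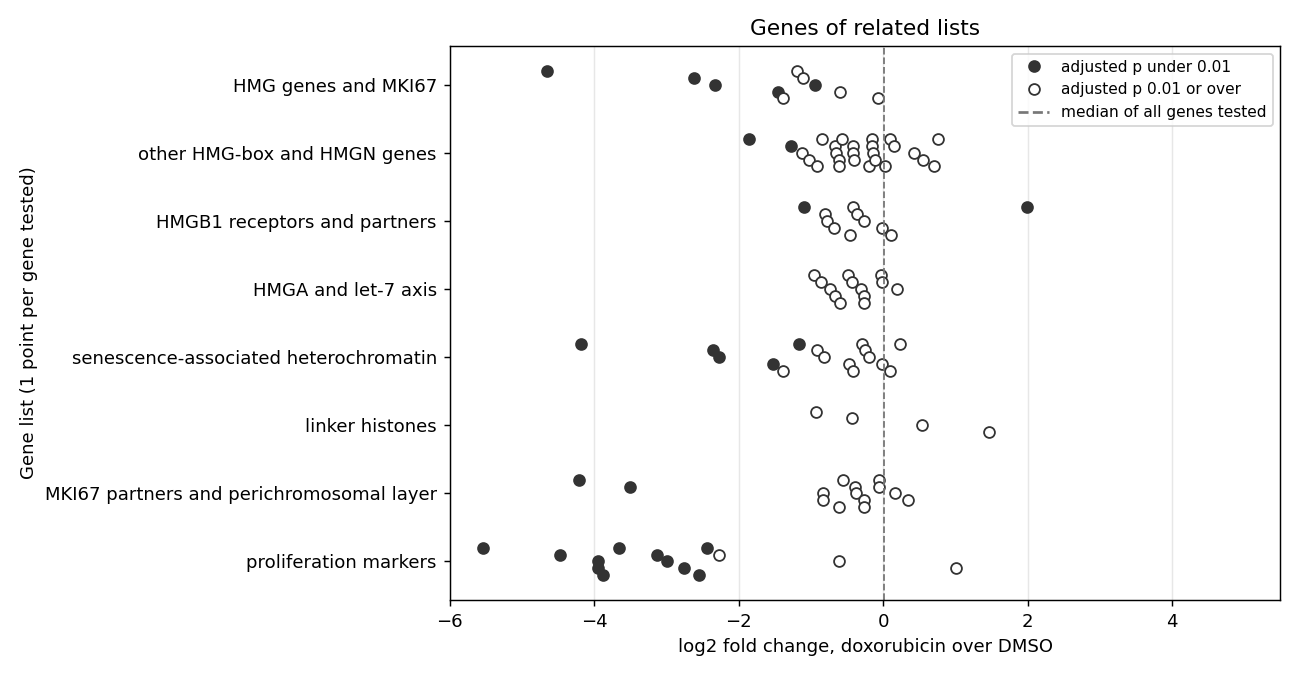
Log2 fold change, doxorubicin over DMSO, of each tested gene of 8 lists, with 1 point per gene, filled where the edgeR adjusted p was under 0.01 and with a dashed line at the median of all genes tested. The median is -1.28 for the HMG genes and MKI67, -3.06 for the proliferation markers and -0.41 for the other HMG-box and HMGN genes.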

How the data were processed

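For each of the 5 libraries the authors deposited unnormalized read counts by gene. Per the labels and the methods, poly-A RNA was prepared with a stranded kit, sequenced as paired ends, mapped to hg38 with STAR and counted with featureCounts in the iGenomes annotation. No source used here gives versions, the strand setting or the treatment of reads with several places. A second deposited file, which holds the comparison the authors made with DESeq2, was not used. The treatment protocol of the labels writes the concentrations as 200 and 340 μM, and the values of 0.2 and 0.34 μM in the sample titles were used.

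Counts were tested in R 4.3.3 with edgeR 4.0.16 (quasi-likelihood test, TMM, no covariates, filterByExpr at its count minimum of 10 and total minimum of 15), comparing 3 doxorubicin with 2 DMSO libraries, at a Benjamini-Hochberg adjusted p of 0.01 over all 14187 genes kept. Standard errors are the absolute log2 fold change over the square root of F. DESeq2 1.42.0 and limma 3.58.1 (voom) were alternatives, as were other scalings, no filter, thinned counts, a replicate block, a single concentration and each library left out. A fit of 3 conditions over 14745 genes gave the concentrations. The scripts were tested on simulated data. The chi-square of counts was 117 per degree of freedom between the DMSO libraries and 75.3 between the 0.2 μM libraries, so that each was counted as a separate sample.

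Gene positions and promoters are from RefSeq (GRCh38.p14), and exon lengths from GENCODE v44 lifted to GRCh37, used as lengths only. The 10 genes and the lists were chosen by name, with earlier results of these data known. The text names all 10 genes, the genes nearest to each, up to 3 called genes per list and direction with the largest absolute log2 fold change, and list genes described as background. Some further list and marker genes were named after their values were seen.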

Additional observations from a re-analysis of the deposited data

How the results depend on the processing

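Of the 10 genes, 5 were called lower in the reported fit. The count was 8 with DESeq2, 8 with no filter on low counts, 8 at an adjusted p of 0.05 and 3 with the 0.2 μM libraries only. It was 4 to 5 with limma voom, DESeq2's size factors in edgeR, library totals, the fit of 3 conditions, thinned counts and pseudogene rows added, where limma voom and the fit of 3 conditions lost HMGN1. With 1 library left out it was 1 to 3. MKI67 was called in all 15 alternatives, and no gene was called higher or changed direction in any of them. A paired fit with the replicate block, possible for the DMSO and 0.2 μM libraries, called 8. Of all genes tested, 2.73% were called lower in the reported fit and 7.72% by DESeq2. For the other settings in this section that share is not given here, so their counts describe the 10 genes alone. The correlation of deviations of same-numbered libraries was 0.528 over genes, which are not independent. With 2 pairs and numbers partly given by accession order, whether same-numbered libraries share a batch cannot be told. The reported fit had no replicate block. The median log2 fold change of the 10 genes stayed between -1.38 and -1.14. Of the ratios between relatives, HMGN2 to HMGN1 reversed, from -0.16 to 0.18, without DMSO library 2, and its values with 1 library left out ran from -0.49 to 0.18. The cause of these differences between settings was not tested. With 2 DMSO libraries and 1 library at 0.34 μM, the number of libraries limits the precision, and each of the 10 genes had at least 385 counts in each library.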
